A study of Mus musculus with 8 samples.

Results

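The MS4A genes examined here are 9 genes of the MS4A4 and MS4A6 group and their near relatives, *Ms4a4a*, *Ms4a4b*, *Ms4a4c*, *Ms4a6b*, *Ms4a6c*, *Ms4a6d*, *Ms4a7*, *Ms4a8a* and *Ms4a14*. They were chosen by name among the 26939 genes of the joined count tables, and all 9 were present in each of the 3 tables. Expression was measured by poly-A RNA-seq in tumor-associated macrophages (TAMs), sorted at day 21 as live Gr-1- cells positive for CD45, CD11b and F4/80 from EO771 tumors, a mouse breast cancer line grown in the mammary fat pad of female mice aged 8 to 14 weeks. WT and *Unc93b1* 3d/3d mice were each studied as controls and after αMARCO, with 2 libraries in each of the 4 groups. WT mice were C57BL/6J. *Unc93b1* 3d/3d mice carry a mutated UNC93B1 in all their cells and lack functional TLR3, TLR7 and TLR9, so a difference between genotypes is not limited to macrophages. αMARCO mice received 100 µg of the rat IgG1 antibody ED31 against the scavenger receptor MARCO every 3 days from day 3 to day 12. The sample labels describe the control mice as untreated and name their libraries PBS, whereas the study's methods name an isotype antibody, so the control injection is not settled. The genotype field of the second *Unc93b1* 3d/3d control library reads 3d/4d, while its title reads 3d/3d, and the title was used. Each control library was pooled from 3 mice, and pooling of the αMARCO libraries is not stated. Nothing in the sources used here says that the libraries of a group came from separate experiments, so the p-values measure only the spread between these libraries.

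MS4A genes encode membrane-spanning 4-domain proteins, small proteins that cross the cell membrane 4 times and often sit beside receptors and tune their signalling. The founding members are *Ms4a1*, which encodes the B cell antigen CD20, and *Ms4a2*, which encodes the β chain of the high-affinity IgE receptor on mast cells and basophils. Of the members described here, *Ms4a4a* is known from macrophages, where its human counterpart is found beside the β-glucan receptor dectin-1, *Ms4a7* is a macrophage and microglia gene, *Ms4a6d* has been described together with the macrophage protein VSIG4, *Ms4a8a* is known from alternatively activated macrophages, and *Ms4a4b* is known from T cells.

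All 9 genes lie on chromosome 19 (GRCm38) between positions 11067471 and 11604849, a span of 537 kb. In order along the chromosome they are *Ms4a8a* (11067471 to 11081102, minus strand), *Ms4a14* (11301249 to 11314454, minus strand), *Ms4a7* (11321039 to 11336146, minus strand), *Ms4a4a* (11375523 to 11392790, plus strand), *Ms4a4c* (11404770 to 11427246, plus strand), *Ms4a4b* (11443553 to 11463549, plus strand), *Ms4a6c* (11469366 to 11482192, plus strand), *Ms4a6b* (11516512 to 11531256, plus strand) and *Ms4a6d* (11586604 to 11604849, minus strand). *Unc93b1*, the gene mutated in 3d/3d mice, is on the same chromosome, and the midpoints of the 9 genes are 7.13 to 7.65 Mb away from its own.

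Several of these genes are close copies of each other, which bears on how reads were shared among them. *Ms4a4b* and *Ms4a4c* are the closest pair of the 8 members whose coding sequences were aligned (*Ms4a14* was not), with coding sequences of 678 bases each that were 91.7% identical and differed at 56 positions. Next among these 8 came *Ms4a6b* and *Ms4a6c*, at 86.4%. The first 150 coding bases of *Ms4a4b* and *Ms4a4c*, from the GENCODE M21 transcripts, are shown because the pair is nearly the same sequence while only *Ms4a4b* of the 2 was called with all libraries of the compared groups, with the 11 differing bases in capitals.
Ms4a4b: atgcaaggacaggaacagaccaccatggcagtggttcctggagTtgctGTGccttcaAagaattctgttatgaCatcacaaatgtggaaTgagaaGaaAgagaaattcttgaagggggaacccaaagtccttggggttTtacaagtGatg
Ms4a4c: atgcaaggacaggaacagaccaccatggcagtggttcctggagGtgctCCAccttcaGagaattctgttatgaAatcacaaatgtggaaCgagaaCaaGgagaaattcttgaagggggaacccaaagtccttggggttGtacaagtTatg
Of the 50-base words in the annotated transcripts of *Ms4a4b*, 1.53% also occur in *Ms4a4c*, and of those of *Ms4a4c*, 8.19% occur in another MS4A gene. The share was 5.85% for *Ms4a6c*, 3.44% for *Ms4a6b* and 2.31% for *Ms4a6d*, and no word of *Ms4a4a*, *Ms4a7*, *Ms4a8a* or *Ms4a14* was shared. *Ms4a6c* also overlaps the antisense gene *BE692007*, which reached 1784 counts in a library. Whether the counting used strand is not stated, so reads in that overlap cannot be assigned to either gene from the tables.

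The libraries held 15182618 to 26411936 counts. A floor of 3 counts corresponds to 0.114 to 0.198 CPM, which are counts scaled to library size with edgeR's TMM factors, for counting error only, and the lowest count of any of the 9 genes was 107, in *Ms4a8a*. The TAM markers *Csf1r*, *Cd68* and *C1qa* were high in every library, at 904 to 1131, 763 to 1052 and 1392 to 2787 CPM, and *Itgam* and *Adgre1*, which encode the sorted antigens CD11b and F4/80, were at 291 to 722 and 331 to 720 CPM. WT libraries held 848 and 965 CPM of *Unc93b1* without and 749 and 707 CPM with αMARCO, and the 3d/3d libraries held 539 and 660 CPM without and 557 and 640 CPM with it, so its transcript was present in both genotypes. *Marco*, the gene of the antibody's target, was at 0.068 to 0.942 CPM and was not tested. The *Unc93b1* 3d/3d αMARCO libraries differed from each other far more than the libraries of the other groups. Of 10478 genes with a mean of at least 5 CPM, 37% differed by more than 1.5-fold between those 2 libraries, against 1.48% to 3.79% in the other 3 groups. Where leaving out 1 of those libraries changed a call of a member, its values without each of them are given. Any fit that leaves out 1 library, of this or another group, leaves that group with 1 library. The lone library is then taken to vary like the other groups in the fit.

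Most of the 9 genes were abundant. Scaled to gene length, which is needed to compare genes, *Ms4a4a*, *Ms4a6d* and *Ms4a4c* led with means over the 8 libraries of 405, 358 and 297 CPM per kb, and together held 67% to 76.7% of the summed level of the 9 genes. *Ms4a6c*, *Ms4a7* and *Ms4a6b* followed with 133, 109 and 98 CPM per kb, and *Ms4a14* with 51.6. *Ms4a8a* and *Ms4a4b* were far lower, at 4.85 and 3.22 CPM per kb.

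Not every step in this order was clear of the spread over libraries. *Ms4a4a* exceeded *Ms4a6d* in 6 of 8 libraries, *Ms4a6c* exceeded *Ms4a7* in 7, *Ms4a7* exceeded *Ms4a6b* in 6 and *Ms4a8a* exceeded *Ms4a4b* in 7, whereas each other gene exceeded the next in all 8. The gene length in the tables adds up all annotated exons, and ranges from 836 bases for *Ms4a4a* to 5274 for *Ms4a4b*, so the order depends on the annotation as well as on the reads. The plot of levels per kb shows the order and the spread within it.

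**Figure D1:**
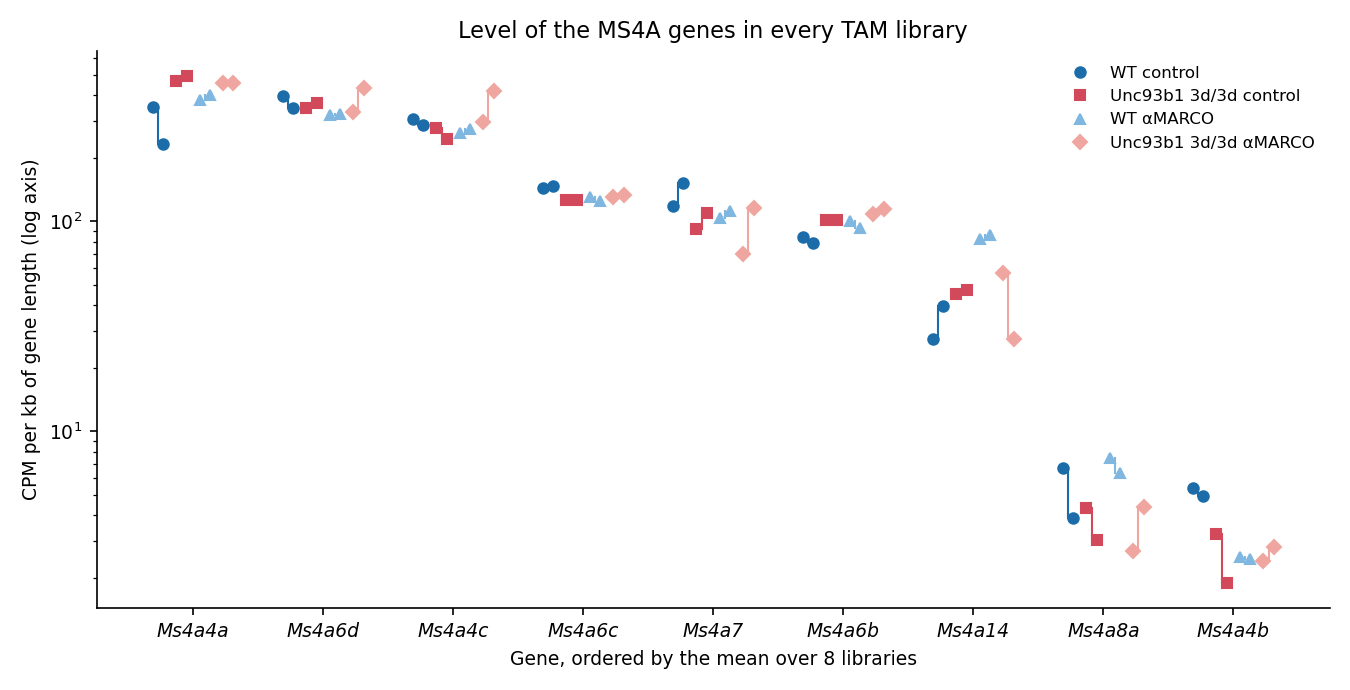
CPM per kb of gene length (log axis) of the 9 MS4A genes in the 8 TAM libraries, with 1 point per library and a line joining the 2 libraries of a group. *Ms4a14* stands highest in the WT αMARCO libraries and *Ms4a4b* in the WT control libraries, while *Ms4a6c* varies 1.17-fold over all libraries.

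The genes differed in how much they varied. *Ms4a6c* ranged 1.17-fold over the 8 libraries, from 257 to 302 CPM, and *Ms4a6d* ranged 1.35-fold. *Ms4a14* ranged 3.13-fold, from 112 to 351 CPM. *Ms4a4b*, *Ms4a8a*, *Ms4a7* and *Ms4a4a* ranged 2.83-fold, 2.78-fold, 2.18-fold and 2.1-fold. The CPM per kb summed over the 9 genes, which the shares below are taken of, was 1296 to 1709.

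**Figure D2:**
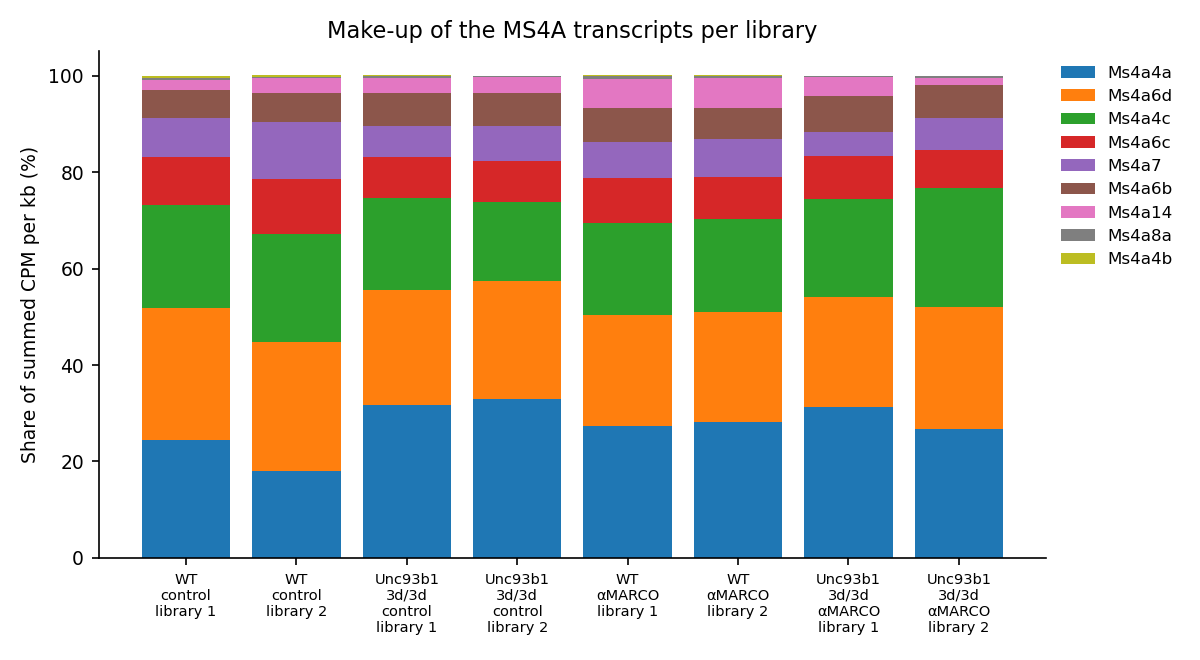
Share of the summed CPM per kb of the 9 genes (%) held by each gene, in 1 bar per library. *Ms4a4a* took 24.4% and 18.1% in WT control, against 31.8% and 32.9% in *Unc93b1* 3d/3d control, and *Ms4a14* took 5.95% and 6.07% in the WT αMARCO libraries.

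The first comparison asked how TAMs of the genotypes differ without αMARCO. Genes were called with edgeR's quasi-likelihood test where the adjusted p (Benjamini-Hochberg over all genes tested) was at most 0.05 and the log2 fold change at least 0.5 in size, and log2 fold changes between genotypes are WT over *Unc93b1* 3d/3d. *Ms4a4a* was lower and *Ms4a4b* higher in WT, and the other 7 genes were not called. The 2 of 9 called stand beside 13% of all 15600 genes tested, with 1 of 9 higher in WT beside 6.58% of all genes and 1 of 9 lower beside 6.4%. The groups did not overlap in 7 of 9 genes, 4 higher and 3 lower in WT, beside 63.1% of all genes. The median log2 fold change of the 9 was 0.17, and that of all genes was 0.00 to 2 decimals. Both shares of the 9 genes rest on few genes and no difference from the other genes was tested.

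*Ms4a4a* was at 294 and 196 CPM in WT control and at 389 and 412 CPM in *Unc93b1* 3d/3d control. Both *Unc93b1* 3d/3d libraries were higher than both WT libraries, and the WT libraries were apart from each other. The log2 fold change was -0.72 (SE 0.18, n = 2 and 2, edgeR adjusted p = 0.0344), a level 1.65-fold higher in *Unc93b1* 3d/3d. The call was lost without the first *Unc93b1* 3d/3d control library (adjusted p = 0.245) or without the second (adjusted p = 0.242), and without the second WT control library, where the log2 fold change was -0.45 against -1.04 without the first. It was also lost when all 8 libraries were fitted together (adjusted p = 0.137).

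Among markers fixed for other cell states, genes of resident-like macrophages moved in the same direction as *Ms4a4a*. Of 14 such genes, 10 were called lower in WT control and 1 higher, with a median log2 fold change of -1.19, and the summed level was 2981 and 2609 CPM in WT control against 5769 and 7045 CPM in *Unc93b1* 3d/3d control. The mannose receptor gene *Mrc1* was among them, with a log2 fold change of -1.07 (SE 0.20, edgeR adjusted p = 0.013). Of 14 nonclassical monocyte genes, 6 were called higher in WT and none lower. Of 5 genes of antigens used in the sort, 2 were called higher in WT and none lower. These were *Itgam* (0.63, edgeR adjusted p = 0.00458) and *Ptprc* (0.53, edgeR adjusted p = 0.0109). Of 6 fibroblast genes, 2 were called lower in WT and none higher, with summed levels of 107 and 84.9 CPM in WT control against 175 and 151 CPM, and of 10 classical monocyte genes 2 were called lower and none higher. The part of these populations in the *Ms4a4a* difference was not tested, and in bulk libraries fewer cells of a type and less RNA per cell cannot be told apart.

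*Ms4a4b* was at 28.5 and 26.1 CPM in WT control and at 17.2 and 10.1 CPM in *Unc93b1* 3d/3d control. Both WT libraries were higher than both *Unc93b1* 3d/3d libraries. The log2 fold change was 0.99 (SE 0.24, n = 2 and 2, edgeR adjusted p = 0.0282), or 1.99-fold. It was called when any 1 of the 4 libraries was left out, but its size depended on the *Unc93b1* 3d/3d control libraries, at 1.42 without the first and 0.64 without the second. With all 8 libraries in the fit the adjusted p was 0.0988, and the gene was not called.

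*Ms4a4c*, whose coding sequence is nearly that of *Ms4a4b*, was at 538 and 506 CPM in WT control and at 485 and 431 CPM in *Unc93b1* 3d/3d control. The groups did not overlap, but the log2 fold change was only 0.17 (SE 0.10, edgeR adjusted p = 0.278). *Ms4a4c* was thus measured at a far higher CPM than *Ms4a4b* with a smaller difference between genotypes, although the difference between these log2 fold changes was not tested.

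T cell markers moved with *Ms4a4b*. All 16 T cell markers, among them the CD3 chains, *Cd8a*, *Lck* and *Trbc2*, were called higher in WT control than in *Unc93b1* 3d/3d control, with a median log2 fold change of 2.75. Their summed level was 201 and 224 CPM in the WT control libraries but only 21.4 and 32.5 CPM in the WT αMARCO libraries, and in *Unc93b1* 3d/3d TAMs it was 46.3 and 21.5 CPM without αMARCO and 13.4 and 14.1 CPM with it. None of the 16 stood at or below 3 counts in every library. NK cell markers were summed at 180 and 160 CPM in WT control and 44.4 to 70.6 CPM in the other 6 libraries, with 4 of 10 called higher in WT control. Mature dendritic cell markers were summed at 1761 and 1144 CPM in WT control and 499 to 660 CPM elsewhere, with 6 of the 10 tested called. Of 7 type 1 conventional dendritic cell genes, 3 were called higher in WT control and none lower.

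The genotype difference in control TAMs was smaller for *Ms4a4b* (0.99) than for the T cell markers (median 2.75), a contrast that was not tested. Its CPM divided by the summed CPM of the 16 T cell markers was 0.142 and 0.117 in WT control against 0.621 and 0.4 in WT αMARCO, while in *Unc93b1* 3d/3d TAMs it was 0.371 and 0.47 without αMARCO and 0.959 and 1.06 with it. The ratio was lowest in WT control, where the T cell markers were highest, and highest in the *Unc93b1* 3d/3d αMARCO libraries, where they were lowest. The marker sum is the divisor and varied more than *Ms4a4b*, so this order follows largely from how the ratio is built. The sort for CD11b and F4/80 is meant to leave out T cells and NK cells, and their part in the *Ms4a4b* differences was not tested.

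**Figure D3:**
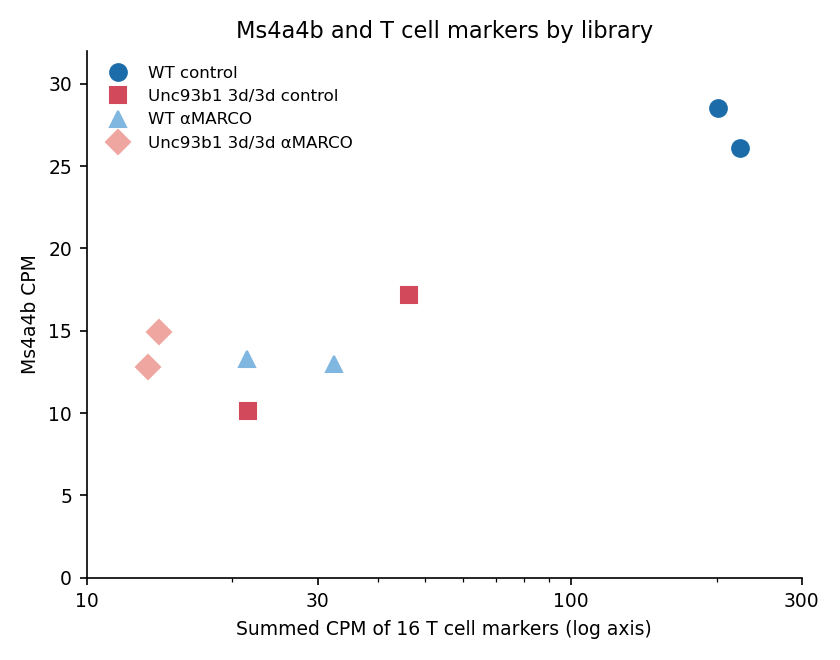
*Ms4a4b* (CPM) against the summed CPM of 16 T cell markers (log axis), with 1 point per library. The WT control libraries stand apart at 201 and 224 CPM of T cell markers and 28.5 and 26.1 CPM of *Ms4a4b*, while the other 6 libraries hold 10.1 to 17.2 CPM of *Ms4a4b* over a range of 13.4 to 46.3 CPM of the markers.

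The genes whose pattern over the 8 libraries was most like that of *Ms4a4b*, by Pearson r of log2 CPM among 9787 genes, were *Klrd1* (r = 0.991), a receptor gene of NK and cytotoxic T cells, *Gem* (r = 0.971) and *Ltb* (r = 0.958), which encodes the lymphocyte cytokine lymphotoxin β. These are descriptions over 8 libraries that share their groups, and with so many genes compared high values occur for every member. By Spearman's rho neither these 3 nor the 3 of *Ms4a4a* were among the 3 closest genes. For *Ms4a4a* the closest were *Cass4* (r = 0.970), *Eps15* (r = 0.965) and *Adamtsl4* (r = 0.958). *Cass4* and *Adamtsl4* were called lower in WT control. That direction follows largely from their choice by likeness over these same libraries.

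The genotype difference was under the threshold for *Ms4a6b*, *Ms4a7* and *Ms4a6c*. *Ms4a6b* was at 378 and 355 CPM in WT control and 456 and 459 CPM in *Unc93b1* 3d/3d control, without overlap, and its log2 fold change of -0.33 (SE 0.09, edgeR adjusted p = 0.0367) passed the adjusted p but not the fold threshold. *Ms4a7* was at 524 and 680 CPM in WT control and 408 and 488 CPM in *Unc93b1* 3d/3d control, also without overlap, with a log2 fold change of 0.41 (SE 0.14, adjusted p = 0.0783). It was called without the first WT control library (0.60, adjusted p = 0.00362) and gave 0.22 without the second (adjusted p = 0.349). *Ms4a6c* was at 296 and 302 CPM in WT control against 257 and 258 CPM, with a log2 fold change of 0.20 (SE 0.09, adjusted p = 0.16). These 3 genes thus separated the groups by amounts of 1.15-fold to 1.33-fold.

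*Ms4a6d* was at 686 and 600 CPM in WT control and 602 and 639 CPM in *Unc93b1* 3d/3d control, where the groups overlapped. *Ms4a14*, at 112 and 161 CPM in WT control against 183 and 192 CPM, gave a log2 fold change of -0.47 (SE 0.16, edgeR adjusted p = 0.0863). *Ms4a8a* was at 12 and 6.93 CPM in WT control and 7.72 and 5.48 CPM in *Unc93b1* 3d/3d control, which overlap. Neither passed the threshold with all 4 libraries, and both were called without the second WT control library. *Ms4a14* then gave -0.75 (adjusted p = 0.0002), against -0.22 without the first (adjusted p = 0.33). *Ms4a8a* then gave 0.86 (adjusted p = 0.0335), against 0.07 without the first (adjusted p = 0.924).

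Since *Unc93b1* and the MS4A genes share a chromosome, the genotype comparison was also read along it. Excluding MS4A genes and *Unc93b1* itself, which was called (log2 fold change 0.58), the share of chromosome 19 genes called in control TAMs was 13.2% within 2 Mb of *Unc93b1* (12 of 91), 7.89% from 2 to 6 Mb (6 of 76), 11.3% from 6 to 10 Mb (6 of 53), 9.09% from 10 to 20 Mb (3 of 33) and 13.6% farther away (31 of 228). The share over all genes was 13%. Genes called higher and lower in WT numbered 9 and 3 within 2 Mb, and 5 and 1 from 2 to 6 Mb. They numbered 3 and 3 from 6 to 10 Mb, where the MS4A genes lie, 1 and 2 from 10 to 20 Mb, and 21 and 10 farther away. From the nearest window to the farthest, the median log2 fold changes were 0.15, 0.19, -0.05, -0.12 and -0.00. These windows hold few called genes, and the part of position in the member differences was not tested. No sequence variants were examined here.

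**Figure D4:**
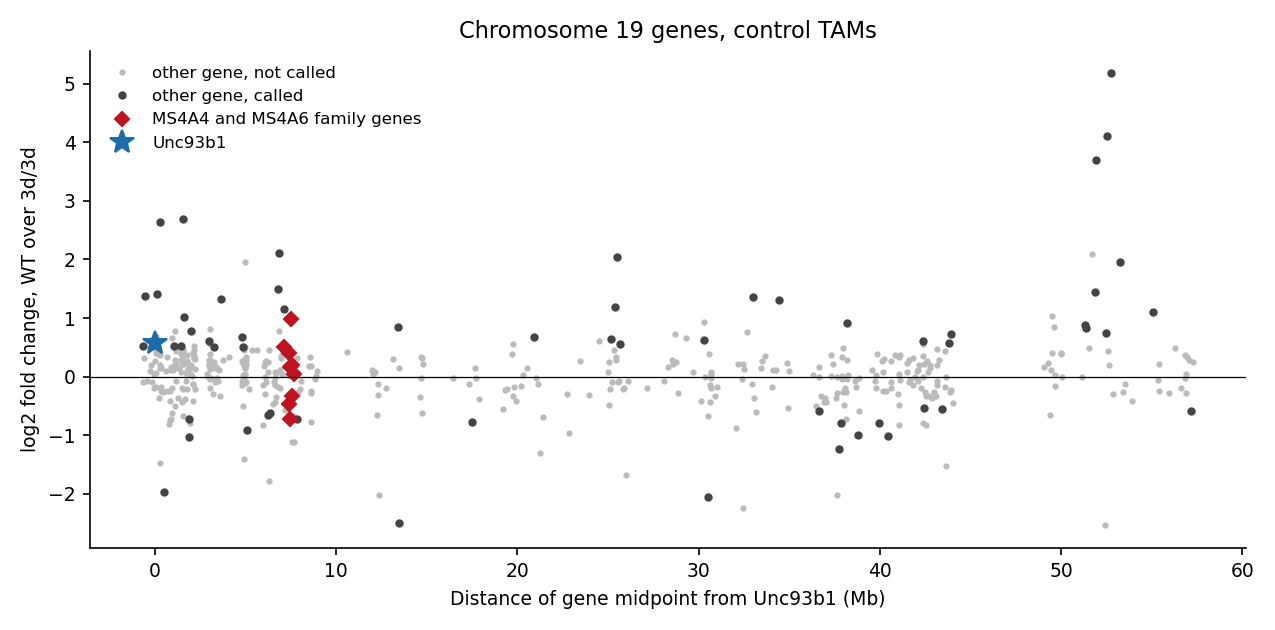
Log2 fold change of WT over *Unc93b1* 3d/3d in control TAMs (vertical) for every tested gene of chromosome 19 by the distance of its midpoint from that of *Unc93b1* in Mb (horizontal). The 9 MS4A genes, at 7.13 to 7.65 Mb, span -0.72 to 0.99 around 0, and called genes are spread along the chromosome.

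Close to the members, the 5 nearest tested genes before the MS4A cluster, *Slc15a3*, *Tmem132a*, *Tmem109*, *Prpf19* and *Ccdc86*, were not called in control TAMs, and of the 5 after it, *Mrpl16*, *Stx3*, *Olfr1417*, *Patl1* and *Osbp*, only *Stx3* was (log2 fold change -0.72, edgeR adjusted p = 0.00448). Within the cluster, the non-coding gene *AW112010*, singled out after its values were seen, was called higher in WT control, by 1.15 on the log2 scale (adjusted p = 0.000395), and lower with αMARCO in WT TAMs, by -0.96 (adjusted p = 7.23e-05), in comparisons that share the WT control libraries. It was the only 1 of 10 such genes within the cluster to be called in control TAMs. With αMARCO in WT TAMs 3 of the 8 tested were called, beside 20.7% of all genes. Besides *AW112010* these were *BE692007*, which overlaps *Ms4a6c* in position, higher by 0.70 (adjusted p = 0.00123), and *Gm38275*, higher by 1.35 (adjusted p = 0.0231). In control TAMs *BE692007* and *Gm38275* were at -0.39 and -1.12 and not called. Of the flanking genes, *Tmem132a* (0.93) and *Stx3* (0.65) were called higher with αMARCO in WT TAMs. *Tmem109* (-0.59), *Prpf19* (-0.54) and *Mrpl16* (-0.78) were called lower, and the other flanking genes were not called.

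The second comparison asked what αMARCO changed in WT TAMs, with log2 fold changes given as αMARCO over control. *Ms4a14* was higher with αMARCO and *Ms4a4b* was lower, and the other 7 genes were not called. The 2 of 9 called stand beside 20.7% of all 15630 genes tested, with 1 of 9 higher beside 8.91% of all genes and 1 of 9 lower beside 11.8%. The groups did not overlap in 8 of 9 genes, 3 higher and 5 lower, beside 70.9% of all genes, and the median log2 fold change was -0.14 against -0.01 over all genes. This comparison shares its WT control libraries with the first.

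*Ms4a14* was at 112 and 161 CPM in WT control and at 337 and 351 CPM in WT αMARCO. Both αMARCO libraries were higher than any other library of the study. The log2 fold change was 1.34 (SE 0.17, n = 2 and 2, edgeR adjusted p = 0.00224), or 2.53-fold, the largest of the 9 genes in any comparison between 2 groups. It lay between 1.09 and 1.62 over the alternatives tried, and was not called only when all 8 libraries were fitted together (1.33, adjusted p = 0.0913).

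The genes with the pattern most like that of *Ms4a14* were *Acin1* (r = 0.993), which encodes a nuclear protein of RNA splicing, *Dgkz* (r = 0.981), a diacylglycerol kinase gene, and *Usp7* (r = 0.977), a deubiquitinase gene, of which *Dgkz* was also among the 3 closest by Spearman's rho. Their log2 fold changes with αMARCO in WT TAMs were 0.51, 0.62 and 0.37, all smaller than that of *Ms4a14*. Their direction follows largely from their choice by likeness over these same libraries. The T cell, NK cell and mature dendritic cell markers described above were called lower with αMARCO in WT TAMs in 16 of 16, 6 of 10 and 7 of 10 genes tested, and 1 of 14 resident-like macrophage genes was called lower and 3 higher. Of 10 classical monocyte genes, 2 were called higher and none lower, with summed levels of 1224 and 713 CPM in WT control and 1377 and 1551 CPM in WT αMARCO. Of other lists, 5 of 14 nonclassical monocyte, 4 of 7 type 1 conventional dendritic cell, 3 of 5 neutrophil, 3 of 6 fibroblast, 2 of 3 epithelial or tumor and 4 of 10 macrophage genes tested were called lower, and 1 nonclassical monocyte and 1 macrophage gene higher. The summed neutrophil level, however, was higher with αMARCO, at 313 and 304 CPM in WT control and 369 and 363 CPM in WT αMARCO. The sums of the other lists just named were lower in both WT αMARCO libraries. Of 4 genes tested for antigens of the sort, *Adgre1* was called lower (-0.54, edgeR adjusted p = 0.0054) and none higher. The part of these lists in the *Ms4a14* difference was not tested.

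*Ms4a4b* fell from 28.5 and 26.1 CPM in WT control to 13.3 and 13 CPM in WT αMARCO. The log2 fold change was -1.05 (SE 0.12, edgeR adjusted p = 0.000342), and without overlap. The median log2 fold change of the 16 T cell markers was -2.89. *Klrd1*, picked above for its likeness to *Ms4a4b* over these same libraries, fell by 2.45 on the log2 scale (edgeR adjusted p = 7.23e-05). With all 8 libraries in the fit the *Ms4a4b* value was not called (adjusted p = 0.0909).

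Of the other members, *Ms4a6b* was at 450 and 418 CPM in WT αMARCO, above both WT control libraries, with a log2 fold change of 0.25 (SE 0.09, edgeR adjusted p = 0.0456) under the fold threshold. *Ms4a4a* was at 318 and 336 CPM in WT αMARCO, again above both WT control libraries, with a log2 fold change of 0.42 (SE 0.19, adjusted p = 0.145). Without the first WT control library its log2 fold change was 0.74 (adjusted p = 1.07e-05), in which the lone control library is taken to vary like the αMARCO group. Without the second it was 0.15 (adjusted p = 0.233). The WT control libraries held 294 and 196 CPM of *Ms4a4a*.

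*Ms4a7* was at 461 and 498 CPM in WT αMARCO, with a log2 fold change of -0.32 (SE 0.12, edgeR adjusted p = 0.0718). *Ms4a6d* was at 558 and 560 CPM, *Ms4a4c* at 464 and 480 CPM and *Ms4a6c* at 266 and 257 CPM, each below both WT control libraries, with log2 fold changes of -0.19, -0.14 and -0.19 and adjusted p of 0.0906 to 0.232. *Ms4a8a* was at 13.4 and 11.3 CPM, overlapping WT control, with a log2 fold change of 0.39. None of these passed the threshold with all 4 libraries. Without the first WT control library *Ms4a8a* (0.84, adjusted p = 0.00417) and *Ms4a7* (-0.50, adjusted p = 0.000973) were called, and without the second they gave 0.04 and -0.13 (adjusted p = 0.87 and 0.365).

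The promoters of the members that were called, and of *Ms4a4c* as the near copy of *Ms4a4b*, are shown as the 250 bases before the transcription start, from RefSeq on GRCm38.p6, read 5′ to 3′ in the direction of the gene. Such windows were matched for 8 of the 9 genes, and *Ms4a6d* was not matched. Capitals mark matches on either strand to 5 motifs, the PU.1 core GAGGAA, the AP-1 site TGANTCA, the STAT site TTCNNNGAA, the C/EBP site TTGCNNAA and the E-box CACGTG. Ms4a14 is chr19:11314455-11314704 on the minus strand, and Ms4a4a, Ms4a4b and Ms4a4c are chr19:11375238-11375487, chr19:11443308-11443557 and chr19:11407411-11407660 on the plus strand. The RefSeq start used for *Ms4a4c* lies inside the gene span given above (11404770 to 11427246), so it differs from the gene start given there.
Ms4a14: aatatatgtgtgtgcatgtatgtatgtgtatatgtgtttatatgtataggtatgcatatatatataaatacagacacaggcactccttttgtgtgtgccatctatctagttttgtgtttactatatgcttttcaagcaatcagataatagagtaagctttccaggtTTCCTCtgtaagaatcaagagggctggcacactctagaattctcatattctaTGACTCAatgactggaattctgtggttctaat
Ms4a4b: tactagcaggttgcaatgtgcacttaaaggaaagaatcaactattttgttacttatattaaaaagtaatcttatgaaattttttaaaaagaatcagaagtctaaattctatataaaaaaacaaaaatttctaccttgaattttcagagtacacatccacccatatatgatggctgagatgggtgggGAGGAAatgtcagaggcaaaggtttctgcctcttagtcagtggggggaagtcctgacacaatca
Ms4a4c: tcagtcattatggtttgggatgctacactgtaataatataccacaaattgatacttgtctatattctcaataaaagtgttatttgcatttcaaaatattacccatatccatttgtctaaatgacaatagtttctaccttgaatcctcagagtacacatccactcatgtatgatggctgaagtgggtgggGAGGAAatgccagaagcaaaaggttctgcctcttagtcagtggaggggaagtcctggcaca
Ms4a4a: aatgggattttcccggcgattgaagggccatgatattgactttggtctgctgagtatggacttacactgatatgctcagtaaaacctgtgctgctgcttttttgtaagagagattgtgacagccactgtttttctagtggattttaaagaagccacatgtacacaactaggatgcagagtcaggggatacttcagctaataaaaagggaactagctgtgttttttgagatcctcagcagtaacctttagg
The *Ms4a14* window held the AP-1 letters 32 bases before the start and the PU.1 letters, on the opposite strand, 84 bases before it. The AP-1 letters were also in the *Ms4a8a* window, 244 bases before the start, and in the *Ms4a7* window chr19:11334696-11334945, 81 bases before its start. Another *Ms4a7* window, chr19:11336147-11336396, held none of the 5 motifs. Neither *Ms4a7* nor *Ms4a8a* was called with all libraries of the compared groups. Of all 32851 promoter windows, 6.75% held the AP-1 letters and 23.3% the PU.1 letters. *Ms4a4b* and *Ms4a4c* both held the PU.1 letters, 64 and 61 bases before the start, in windows that were 80.1% identical over 231 aligned bases. The *Ms4a4a* window held none of the 5 motifs. The STAT site, the C/EBP site and the E-box, found in 7.02%, 9.56% and 6.02% of all windows, matched in none of the windows of the 8 genes. These matches describe the letters of the windows only.

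The genotypes were then compared under αMARCO. No gene was called by edgeR, so that 0 of 9 members stand beside 0% of all 15722 genes tested. At an unadjusted edgeR p of at most 0.05 there were 2 of 9 members, beside 1076 genes or 6.84% of all genes tested. DESeq2 called 0 members and 214 genes. The groups did not overlap in 7 of 9 genes, 2 higher and 5 lower in WT, beside 44.3% of all genes. Without the first *Unc93b1* 3d/3d αMARCO library edgeR called 6366 genes and without the second 1252, with the lone library of that group taken to vary like the WT αMARCO libraries.

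The members past the unadjusted threshold were *Ms4a14* and *Ms4a8a*. *Ms4a14* was at 337 and 351 CPM in WT αMARCO and at 230 and 112 CPM in *Unc93b1* 3d/3d αMARCO, without overlap, with a log2 fold change of 1.01 (SE 0.38, edgeR adjusted p = 0.709). Without the first *Unc93b1* 3d/3d αMARCO library it was 1.62 (adjusted p = 5.72e-16), and without the second it was 0.58 (adjusted p = 0.000329). *Ms4a14* was thus lower in each *Unc93b1* 3d/3d αMARCO library, by amounts that depended on the library.

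*Ms4a8a* was at 13.4 and 11.3 CPM in WT αMARCO and at 4.83 and 7.89 CPM in *Unc93b1* 3d/3d αMARCO, also without overlap, with a log2 fold change of 0.97 (SE 0.33, edgeR adjusted p = 0.695). Without the first *Unc93b1* 3d/3d αMARCO library it was 0.65 (adjusted p = 0.00837) and without the second 1.36 (adjusted p = 0.000162). It was the least counted member, with 107 to 294 counts.

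*Ms4a4a* was at 380 and 382 CPM in *Unc93b1* 3d/3d αMARCO, above both WT αMARCO libraries, and its log2 fold change of -0.22 (SE 0.19, edgeR adjusted p = 0.725) pointed the same way as in control TAMs. *Ms4a4b*, at 12.8 and 14.9 CPM, overlapped WT αMARCO, with a log2 fold change of -0.07. *Ms4a4c* was at 519 and 735 CPM and *Ms4a7* at 312 and 516 CPM, and in both genes the 2 libraries of the group were far apart. Without the first *Unc93b1* 3d/3d αMARCO library *Ms4a4c* gave -0.63 (adjusted p = 3.44e-06), and without the second -0.14 (adjusted p = 0.487). *Ms4a7* gave 0.62 without the second (adjusted p = 0.000316) and -0.10 without the first (adjusted p = 0.461). *Ms4a6b* at 489 and 512 CPM, *Ms4a6c* at 266 and 274 CPM and *Ms4a6d* at 575 and 752 CPM were not called in any of these fits.

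In *Unc93b1* 3d/3d TAMs, αMARCO was compared with control. Again edgeR called no gene, with 0 of 9 members beside 0% of all 15428 genes tested. At an unadjusted edgeR p of at most 0.05 there were 0 of 9 members, beside 744 genes or 4.82% of all genes tested. DESeq2 called 0 members and 60 genes. The groups did not overlap in 4 of 9 genes, 3 higher and 1 lower, beside 38.9% of all genes. The log2 fold changes of the 9 genes lay between -0.13, for *Ms4a14*, and 0.46, for *Ms4a4c*.

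Each of these values rests on the pair of libraries that differed. *Ms4a14* was at 183 and 192 CPM in *Unc93b1* 3d/3d control and at 230 and 112 CPM with αMARCO, so that 1 treated library lay above and the other below both controls. Its log2 fold change was -0.73 without the first αMARCO library (edgeR adjusted p = 0.000101) and 0.30 without the second (adjusted p = 0.298). *Ms4a4c* gave 0.70 without the first (adjusted p = 0.000261) and 0.18 without the second (adjusted p = 0.673). *Ms4a7* gave 0.22 without the first (adjusted p = 0.25) and -0.52 without the second (adjusted p = 0.03), in opposite directions. The other 6 members were not called without either library. *Ms4a4b*, at 17.2 and 10.1 CPM in control and 12.8 and 14.9 CPM with αMARCO, overlapped, with a log2 fold change of 0.03 (SE 0.34).

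The difference between the αMARCO effects in WT and *Unc93b1* 3d/3d TAMs was tested as an interaction over all 8 libraries. No gene was called by edgeR, with 0 of 9 members beside 0% of all 16620 genes. DESeq2 called 0 members and 211 genes. At an unadjusted edgeR p of at most 0.05 there were 2 of 9 members, beside 2549 genes or 15.3% of all genes tested. The members were *Ms4a14*, whose αMARCO effect was 1.46 higher in WT on the log2 scale (SE 0.44, edgeR adjusted p = 0.318), and *Ms4a4b*, whose effect was 1.08 lower (-1.08, SE 0.36, adjusted p = 0.318). For *Ms4a14* the value was 2.07 without the first *Unc93b1* 3d/3d αMARCO library (adjusted p = 9.06e-05) and 1.02 without the second (adjusted p = 0.0446). *Ms4a4b* was called without the first (-1.19, adjusted p = 0.0122) and not without the second (-0.99, adjusted p = 0.118). *Ms4a4c* was at -0.60 (adjusted p = 0.329) with all 8 libraries, was called without the first (-0.83, adjusted p = 0.000454) and was not without the second (-0.34, adjusted p = 0.24). DESeq2 gave an adjusted p of 0.0511 for *Ms4a14*.

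**Figure D5:**
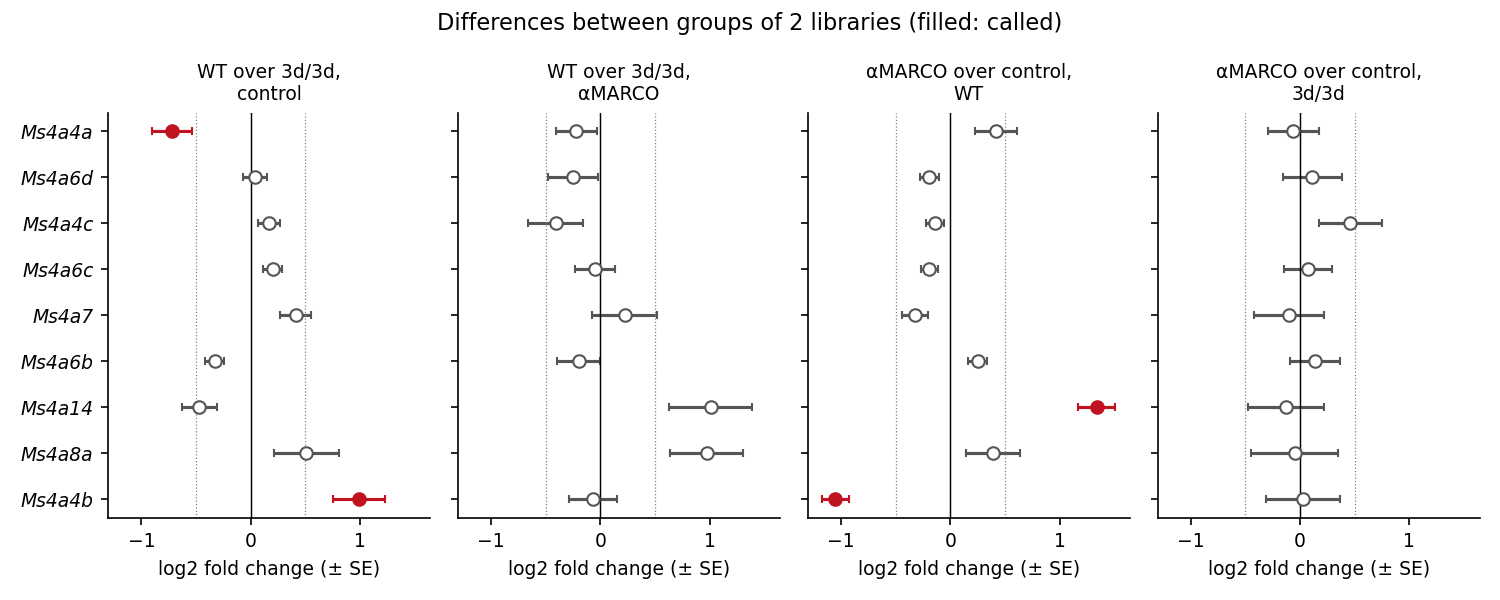
Log2 fold change (horizontal, bars are the SE from edgeR) of the 9 MS4A genes in the 4 comparisons between groups of 2 libraries, with filled points for called genes and dotted lines at the fold threshold of 0.5. *Ms4a4b* is called in both comparisons that use WT control, at 0.99 and -1.05, *Ms4a4a* at -0.72 and *Ms4a14* at 1.34, and the comparisons with *Unc93b1* 3d/3d αMARCO have wider errors.

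The 9 neighbouring genes did not move as a block over the 8 libraries. Of their 36 pairs, 22 had a positive Pearson r of log2 CPM, 5 were above 0.5 and 10 below -0.5, with a median of 0.11. *Ms4a4b* and *Ms4a6c* (r = 0.87) and *Ms4a4a* and *Ms4a6b* (r = 0.86) were the most alike, and *Ms4a6d* and *Ms4a14* (r = -0.89) the most opposed. The near copies *Ms4a4b* and *Ms4a4c* gave 0.25. These points share libraries and groups and are a description only.

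The founding and other members of the family were hardly measured in TAMs. Of 12 further MS4A genes, 6 were present in the tables, *Ms4a1*, *Ms4a2*, *Ms4a3*, *Ms4a4d*, *Ms4a12* and *Ms4a15*, with a summed level of 1.12 to 3.54 CPM. *Ms4a1* and *Ms4a4d* passed the filter on low counts and were not called in any comparison. The 8 B cell markers were summed at 18.8 to 62.4 CPM and the 8 mast cell and basophil markers at 15.6 to 47.9 CPM.

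Genes described together with MS4A proteins were a mixed group. Of 6 such genes, *Clec7a*, *Vsig4*, *Trem2*, *Tyrobp*, *Fcer1g* and *Tnfrsf18*, 5 were tested. In control TAMs *Clec7a*, which encodes dectin-1, was at 326 and 207 CPM in WT and 152 and 142 CPM in *Unc93b1* 3d/3d, higher in WT by 0.84 (SE 0.21, edgeR adjusted p = 0.0483), opposite to *Ms4a4a*. The lipid receptor gene *Trem2* was lower in WT, by -1.50 (SE 0.28, adjusted p = 0.00716), at 2.99 to 10.6 CPM. The adaptor gene *Fcer1g* was higher by 0.56 (adjusted p = 0.0093). Under αMARCO *Clec7a* was instead lower in WT, by -0.70 (SE 0.24, edgeR adjusted p = 0.699), and was not called. *Ms4a4a*, at -0.22 there, had the same direction.

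*Tnfrsf18*, which encodes the T cell costimulatory receptor GITR, was at 11.9 and 10.8 CPM in WT control and at 1.31 to 2.79 CPM in the other 6 libraries. It was higher in WT control by 2.42 (SE 0.31, edgeR adjusted p = 0.00133) and lower with αMARCO in WT by -2.71 (SE 0.26, adjusted p = 0.000152), with the T cell markers. *Vsig4* had at most 0.277 CPM and was not tested, while *Ms4a6d* was among the most abundant members.

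Macrophage states that MS4A genes have been linked to were read from further lists. Of 18 genes of alternative activation and glucocorticoid response, 4 were called higher and 1 lower in WT control, beside 6.58% and 6.4% of all genes, and 2 were called higher and 2 lower with αMARCO in WT TAMs, beside 8.91% and 11.8%. *Retnla* was among them, with a log2 fold change of 3.49 (SE 0.26, edgeR adjusted p = 0.000583) with αMARCO in WT TAMs. Of 16 interferon-stimulated genes, 0 were called higher and 1 lower in WT control, and 1 was called in each direction with αMARCO in WT TAMs.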

How the data were processed

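TAM RNA was sequenced as poly-A libraries. Per the submitters' processing notes and the methods, the authors cleaned reads with fastp, aligned them to GRCm38 with HISAT2 2.0.5 and counted them with featureCounts 1.5.0. The deposited tables hold the authors' raw counts per gene, used here, and FPKM values made by the authors from those counts, used only as an alternative for levels. They also hold DESeq2-normalized signal, log2 fold changes and p-values of the authors' own comparisons, which were not used. The 3 tables were joined by gene identifier. All 95230 counts that stood in several tables were identical there, and a gene missing from a table was set to 0 (such genes had at most 1 count where this could be checked). Gene positions matched GENCODE M21 for 95.5% of identifiers and for 8 of the 9 members, with another end for *Ms4a4b*.

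Comparisons used edgeR 4.0.16 in R 4.3.3 (TMM, filterByExpr, robust quasi-likelihood) on the 4 libraries concerned, and all 8 for the interaction. The procedure was tested on simulated data. CPM used TMM factors over all 8 libraries. Alternatives were DESeq2 1.42.0, its size factors, 2 other count filters (none beyond 1 count, and 10 counts in every library), all 8 libraries in 1 fit, a replicate block, other call thresholds and each library left out. The members, lists and tests were chosen with earlier results of these data known. The genes named are the 9 members, *Unc93b1*, other MS4A genes, genes described with MS4A proteins, the 3 genes most like a member in pattern, the 5 nearest tested neighbours on either side, and marker genes.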

Additional observations from a re-analysis of the deposited data

How the results depend on the processing

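Of 477 values of single members under the alternatives, 437 kept their direction and their side of the threshold, 19 passed it only under the alternative, 7 passed it only in the reported fit and 14 reversed. In control TAMs, fitting all 8 libraries together called 364 genes and 0 members, and a threshold of 1 on the log2 fold change called 951 genes and 0 members. With αMARCO in WT TAMs the fit of all 8 libraries called 164 genes and 0 members, no fold threshold called 5487 genes, and a threshold of 1 called 1366. Between genotypes under αMARCO, DESeq2 called 214 genes, a filter of only 1 count 107 and the fit of all 8 libraries 108. With αMARCO in *Unc93b1* 3d/3d TAMs these numbers were 60, 174 and 1, and *Ms4a4b* gave -0.00 under a filter of 10 counts in every library. For the interaction DESeq2 called 211 genes and the filter of 1 count 152. Of the 27 genes that were the 3 most alike in pattern to each member, 4 were the same with Spearman's rho, among them *Dgkz* for *Ms4a14* and no other gene named here. The causes of these changes were not tested.

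The replicate number as a block changed no call of a member. It called 97 genes between genotypes under αMARCO and 5 with αMARCO in *Unc93b1* 3d/3d TAMs, where the reported fits called 0. The numbers are not described as pairs, and the correlation of same-numbered deviations between groups was -0.0768 to 0.135 over 16620 genes.

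Leaving out 1 library at a time left 1493 to 2234 genes and 1 to 3 members called in control TAMs. Between genotypes under αMARCO it left 17 to 6366 genes and 0 to 3 members called, with αMARCO in WT TAMs 1940 to 3951 genes and 2 to 5 members, with αMARCO in *Unc93b1* 3d/3d TAMs 1 to 5500 genes and 0 to 2 members, and for the interaction 0 to 6440 genes and 0 to 3 members. The 6366, 5500 and 6440 genes were called without the first *Unc93b1* 3d/3d αMARCO library, the 3951 genes without the second WT control library, the 1940 without the first WT αMARCO library and the 5 members without the first WT control library. Log2 fold changes that changed sign ranged from -0.05 to 0.14 for *Ms4a6d* in control TAMs. Between genotypes under αMARCO they ranged from -0.17 to 0.04 for *Ms4a4b* and from -0.10 to 0.62 for *Ms4a7*. With αMARCO in *Unc93b1* 3d/3d TAMs they ranged from -0.30 to 0.47 for *Ms4a4b*, -0.11 to 0.29 for *Ms4a6d*, -0.52 to 0.22 for *Ms4a7*, -0.44 to 0.28 for *Ms4a8a* and -0.73 to 0.30 for *Ms4a14*, and for the interaction from -0.53 to 0.18 for *Ms4a7*. With 2 libraries a group, outlying libraries within a group could not be tested.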
